A study of Mus musculus with 12 samples.

Results

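The costimulatory receptors described here are 10 genes, Cd28, Icos, Tnfrsf9, Tnfrsf4, Tnfrsf18, Cd27, Cd226, Slamf1, Cd5 and Cd6, chosen by symbol from 35855 annotated genes in RNA-seq libraries of mouse T cells. The study asked what loss of the transcription factor TCF-1, encoded by Tcf7, does to CD8 T cells before and after transplantation into an allogeneic host. It sorted CD8 T cells from spleens of C57BL/6 mice that were wild type (WT) or TCF-1 cKO (TCF-7 cKO in the sample labels), in which a floxed Tcf7 gene was cut by CD4-Cre, a recombinase driven by the Cd4 promoter that acts in developing T cells and so removes the gene from CD4 and CD8 T cells alike. The pre-transplant libraries hold cells taken from these donor mice. The post-transplant libraries hold donor cells, marked by H2Kb, sorted from the spleens of lethally irradiated BALB/c recipients on day 7 after transfer of donor CD3 T cells, with T-cell-depleted bone marrow from WT mice given alongside. Each of the 4 groups (WT and TCF-1 cKO, pre-transplant and post-transplant) has 3 libraries, numbered here as in their labels, and donor age was not given for them. The labels speak of 3 different mice only for the pre-transplant groups, so the p-values measure the spread between these libraries, part of which may be technical.

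T cell activation needs a signal from the T cell receptor and a second one from costimulatory receptors. CD28 and ICOS, immunoglobulin superfamily receptors for B7 family ligands, signal through phosphatidylinositol 3-kinase. CD28 is present on resting mouse T cells and ICOS appears on activation. TNFRSF9 (4-1BB), TNFRSF4 (OX40), TNFRSF18 (GITR) and CD27 belong to the TNF receptor superfamily, recruit TRAF adaptors and support survival, and CD27 is carried by naive T cells whereas 4-1BB is induced by activation. CD226 (DNAM-1) binds the nectin family ligands CD155 and CD112, and SLAMF1 is a self-ligand that signals through the adaptor SAP. CD5 and CD6 are related scavenger receptor proteins of the T cell surface that tune T cell receptor signalling, and both can dampen it.

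Tnfrsf4 and Tnfrsf18 lie 9551 bp apart on chromosome 4 (GRCm38, 156013843 to 156016612 and 156026164 to 156028895, both on the plus strand) with no protein-coding gene between them. Cd5 (chromosome 19, 10717116 to 10739002) and Cd6 (10789341 to 10830058), both on the minus strand, are 50338 bp apart, again with no protein-coding gene between. Cd28 (chromosome 1, 60716800 to 60773359) and Icos (60977927 to 61000320) are separated by 204567 bp that hold Ctla4. The differences of Tnfrsf4 and Tnfrsf18 had the same sign in all 5 comparisons below, and those of the other pairs in 4 of 5, the exceptions being values near 0 for Cd28 between stages in WT and for Cd6 between stages in TCF-1 cKO.

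RefSeq promoter windows (GRCm38.p6, 250 bases before to 50 after a start site) were found for 6 of the 10 members, in 7 windows. Since TCF-1 was the deleted factor, the windows were searched on both strands for the TCF/LEF letters CTTTGAA and their variants CTTTGAT and lastly CTTTGTT, at least 1 of which 13.9% of 32851 windows hold, and for the AP-1 letters TGACTCA and their variant TGAGTCA, held by 5.20%. A TCF/LEF match was found in 2 member windows, of Tnfrsf9 at position -80 and of Cd27 at 14 after the start site, and an AP-1 match in 1, a second Tnfrsf9 window, at position -15. The 3 windows with a match follow, then those of the neighbours Tnfrsf4 and Tnfrsf18, which were both lower in TCF-1 cKO post-transplant cells and hold neither set of letters. Capitals mark the matches, read 5′ to 3′ on the strand of the gene. A match is a run of letters and not a measured binding site.
Tnfrsf9, chr4:150919905-150920204, plus strand: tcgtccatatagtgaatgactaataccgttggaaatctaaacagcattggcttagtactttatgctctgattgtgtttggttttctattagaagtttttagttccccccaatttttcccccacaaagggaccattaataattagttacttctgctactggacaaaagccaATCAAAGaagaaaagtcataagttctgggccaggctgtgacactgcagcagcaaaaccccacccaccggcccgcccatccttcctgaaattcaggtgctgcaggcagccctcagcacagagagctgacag
Tnfrsf9, chr4:150927749-150928048, plus strand: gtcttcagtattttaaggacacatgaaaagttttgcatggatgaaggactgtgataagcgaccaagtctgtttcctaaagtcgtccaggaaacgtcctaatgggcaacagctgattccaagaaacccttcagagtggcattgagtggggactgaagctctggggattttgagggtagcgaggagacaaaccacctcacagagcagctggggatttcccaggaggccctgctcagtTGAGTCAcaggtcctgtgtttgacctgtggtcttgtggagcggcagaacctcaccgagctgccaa
Cd27, chr6:125236978-125237277, minus strand: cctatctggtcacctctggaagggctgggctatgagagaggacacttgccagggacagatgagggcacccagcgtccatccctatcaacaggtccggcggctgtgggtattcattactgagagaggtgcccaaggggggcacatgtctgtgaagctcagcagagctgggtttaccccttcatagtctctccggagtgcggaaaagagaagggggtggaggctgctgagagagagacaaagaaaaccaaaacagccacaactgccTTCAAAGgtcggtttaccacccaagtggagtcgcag
Tnfrsf4, chr4:156013445-156013744, plus strand: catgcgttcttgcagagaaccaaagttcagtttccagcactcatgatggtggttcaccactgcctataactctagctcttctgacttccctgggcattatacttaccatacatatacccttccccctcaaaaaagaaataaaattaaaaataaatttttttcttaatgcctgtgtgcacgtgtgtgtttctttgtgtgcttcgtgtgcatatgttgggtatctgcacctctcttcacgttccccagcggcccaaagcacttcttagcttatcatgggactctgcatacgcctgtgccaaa
Tnfrsf18, chr4:156026072-156026371, plus strand: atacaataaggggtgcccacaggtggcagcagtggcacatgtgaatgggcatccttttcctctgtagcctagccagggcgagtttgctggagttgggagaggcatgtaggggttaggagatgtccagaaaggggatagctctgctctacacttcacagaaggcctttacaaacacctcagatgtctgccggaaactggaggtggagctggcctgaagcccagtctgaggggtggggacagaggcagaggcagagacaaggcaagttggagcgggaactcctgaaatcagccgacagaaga

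Library totals were 4520270 to 9577076 estimated counts in TCF-1 cKO pre-transplant libraries and 18184814 to 32657005 in the other 3 groups, and every member was counted in every library, the lowest value being 37.3 estimated counts for Tnfrsf9. Levels below are normalized CPM, counts scaled for library size with TMM factors over all 12 libraries, unless TPM, which is also scaled for transcript length, is named. Tcf7 was at 76.1 to 166 in WT and 26.3 to 62.9 in TCF-1 cKO pre-transplant libraries, a log2 difference of -1.36 ± 0.46 (SE, edgeR adjusted p = 0.223). The T cell markers of the next paragraph had a median difference of -1.41 in the same comparison, with a range of -1.84 to -0.50. Whether Tcf7 differed beyond the T cell content of these libraries was not tested. In post-transplant libraries Tcf7 was at 26.9, 26.5 and 10.7 in WT and 14.6, 13.7 and 14.1 in TCF-1 cKO, a difference of -0.91 ± 0.55 (edgeR adjusted p = 0.308), and the library labelled WT post-transplant replicate 3 was below every TCF-1 cKO library of that stage. Reads from exons outside the deleted part would still count as Tcf7, and their part in these values was not tested. The library labelled TCF-1 cKO post-transplant replicate 2 is a CD4 T cell sort by its source label and a CD8 T cell library by its title, and the design text of the series names CD4 as well as CD8 donor cells for the day 7 sort. It held 2.04 CPM of Cd4 and 622 of Cd8a, like the other post-transplant libraries, at 1.25 to 7.00 and 478 to 906.

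Markers of other cells were high in the libraries labelled as pre-transplant CD8 T cells. The 6 T cell markers (Cd3d, Cd3e, Cd3g, Cd247, Cd2, Lat) summed to 913 to 992 in WT and 258 to 502 in TCF-1 cKO pre-transplant libraries, against 5831 to 9273 post-transplant. The 8 B cell and plasma cell markers summed to 9487 to 13914 in WT and 4169 to 9962 in TCF-1 cKO pre-transplant libraries and to 363 to 1048 post-transplant. Erythroid markers summed to 2121 to 17118 pre-transplant and 318 to 2618 post-transplant, myeloid and dendritic cell markers to 776 to 2818 and 174 to 576, and NK cell markers to 135 to 418 and 25.8 to 51.0. Cd4 was at 22.9 to 110 in the pre-transplant libraries, beside Cd8a at 26.5 to 154. No gene of these lists was at 0 in all libraries of a group. In such bulk libraries fewer T cells and less RNA per T cell cannot be told apart. Values scaled with TMM and values scaled to T cell markers are both given for the pre-transplant comparisons.

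**Figure D1:**
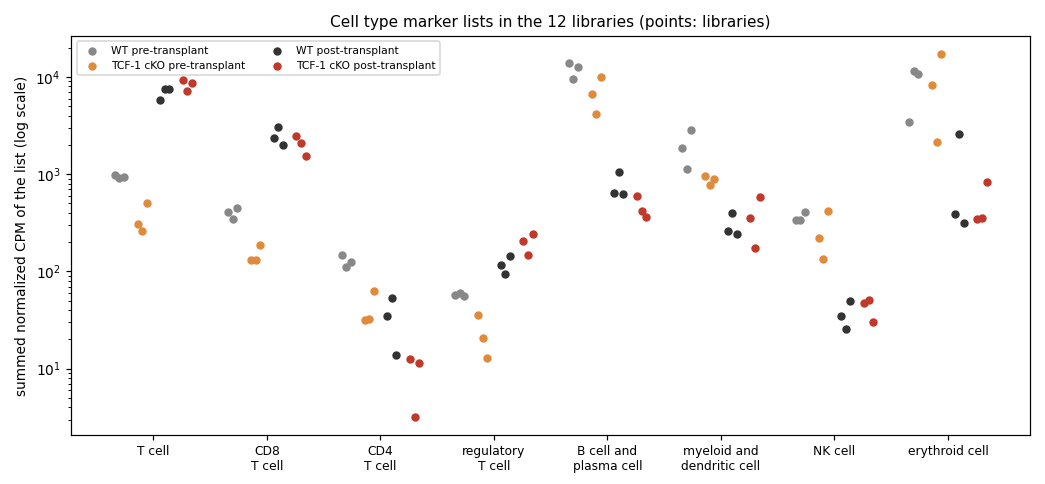
Summed normalized CPM (log scale) of each cell type marker list in the 12 libraries, 1 point per library, coloured by group. T cell markers sit at 258 to 992 in the 6 pre-transplant libraries and 5831 to 9273 in the 6 post-transplant libraries, and B cell markers at 4169 to 13914 and 363 to 1048.

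Compared per length in TPM, the members' order differed between groups. In WT pre-transplant libraries Cd27 had the highest mean (141 ± 60.2 TPM, SD, n = 3), followed by Tnfrsf18 (99.6 ± 9.89) and Cd6 (84.3), whose ranges overlapped in turn, and Tnfrsf9 the lowest (8.33 ± 3.51). In WT post-transplant libraries Tnfrsf18 was at 342 ± 135 TPM and Tnfrsf9 at 241 ± 79.9, and every member overlapped the next in the order down to Slamf1, at 7.11 ± 3.81. In TCF-1 cKO post-transplant libraries the top 3 did not overlap, with Tnfrsf9 at 363 ± 29.7 TPM, Cd226 at 243 ± 74.7 and Tnfrsf18 at 116 ± 50.4, and Cd6 was lowest at 6.73 ± 2.63. In TCF-1 cKO pre-transplant libraries, from Tnfrsf18 at 57.4 ± 37.6 to Icos at 3.66 ± 2.54 TPM, each member overlapped the next.

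**Figure D2:**
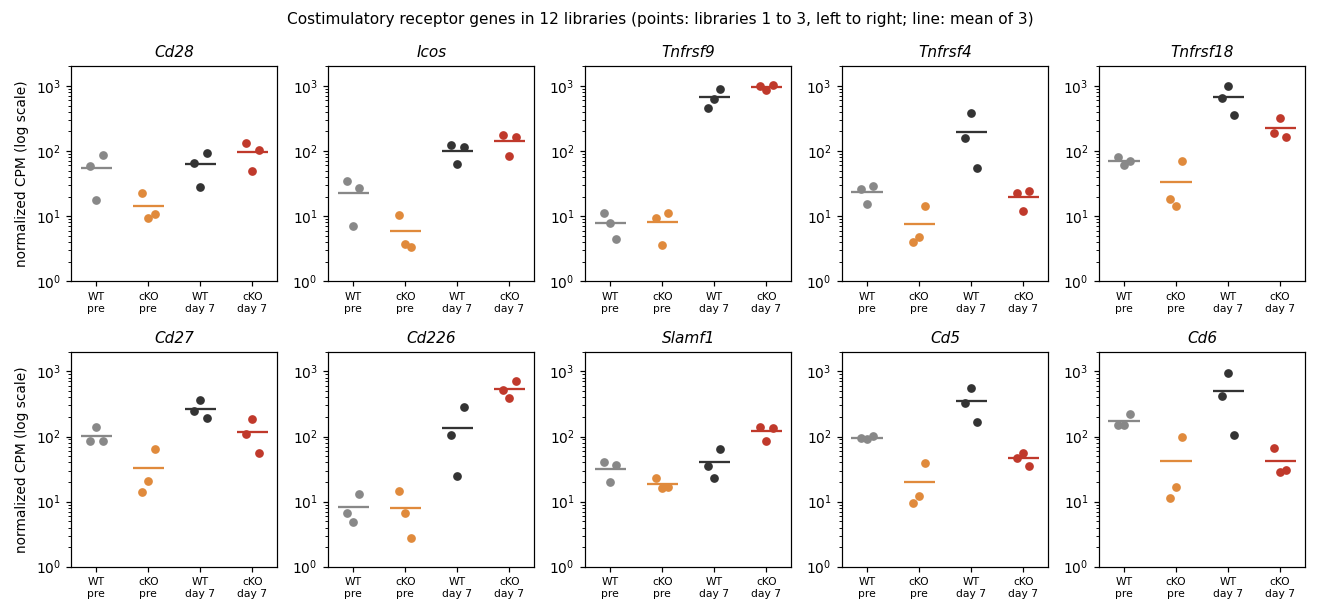
Normalized CPM (log scale) of the 10 members in each library, with points for libraries 1 to 3 from left to right and a line for the mean of 3. Tnfrsf9 sits at 3.57 to 11.1 before and 466 to 1017 after transplant in both genotypes, and Tnfrsf4, Tnfrsf18, Cd27, Cd5 and Cd6 in TCF-1 cKO post-transplant libraries sit below the WT libraries of that stage.

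The first comparison asked how the receptors differed between day 7 and pre-transplant in WT cells. Tnfrsf9 was 70.3-fold, Cd226 13.7-fold, Tnfrsf18 8.03-fold, Tnfrsf4 7.11-fold, Icos 3.79-fold and Cd5 3.09-fold higher post-transplant. These 6 of 10 members passed an edgeR adjusted p of 0.1, and none was lower, where 9.7% of 16790 tested genes were called higher and 10.3% lower. The 3 libraries of each stage did not overlap, with higher values post-transplant, for 7 members, the 6 called and Cd27, against 15.9% of all genes (and 16.2% with lower values, as no member had). Cd28, Slamf1 and Cd6 overlapped between stages. The members' median log2 difference was 1.77, beside -0.30 over all tested genes. Without WT pre-transplant replicate 2, or without replicate 3, 3 members were called higher (Tnfrsf9, Tnfrsf18 and Cd226). In all, 2134 of 17747 and 1579 of 18860 genes were called in these fits. Limma on log2(TPM + 1) values called 2 members, Tnfrsf9 and Tnfrsf18, with 6732 of 16790 genes called in all.

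In TCF-1 cKO cells the same comparison called 7 of 10 members higher and none lower, where 19.7% of 18535 tested genes were called higher and 16.8% lower. Tnfrsf9 was 118-fold, Cd226 67.7-fold, Icos 24.2-fold, Tnfrsf18 6.71-fold, Cd28 6.64-fold, Slamf1 6.44-fold and Cd27 3.56-fold higher post-transplant. Except for Cd27, these did not overlap between stages, 6 of 10 members against 23.1% of all genes (23.9% were without overlap and lower, and no member was). The members' median log2 difference was 2.71, beside -0.29 over all genes. Tnfrsf4 at 1.36 ± 0.59 (SE) and Cd5 at 1.20 ± 0.55 on the log2 scale did not pass, and Cd6 was at -0.01 ± 0.76. Without TCF-1 cKO pre-transplant replicate 3 all 10 members were called higher, Tnfrsf4 at 2.28, Cd5 at 2.22 and Cd6 at 1.66, with 7114 of 21454 genes called in all. Without any other single library 6 or 7 members were called higher, with 5242 to 5691 genes called in all. Cd27 lost its call without TCF-1 cKO pre-transplant replicate 1 or 2 or post-transplant replicate 1 or 2, and was at -0.18 with log2(TPM + 1).

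These directions rest on the scaling. TMM and plain library totals differ by 0.95 in the log2 difference of the median gene between stages in WT and by 1.60 in TCF-1 cKO. With library totals 4 members were called higher in WT and none lower, and in TCF-1 cKO 6 were called higher and 1, Cd6, lower. Of all genes, 4853 of 16790 were called in WT and 12268 of 18535 in TCF-1 cKO with library totals. The median of all genes was -1.25 in WT and -1.89 in TCF-1 cKO, where Cd6 was at -1.43. The T cell marker genes were themselves all called higher post-transplant, by 2.32 to 2.86 in WT and 1.88 to 6.04 in TCF-1 cKO on the log2 scale. When libraries were scaled to these 6 markers, a setting added after the values were seen, Tnfrsf9 alone was called higher in WT (3.52) and Cd28, Cd27, Slamf1 and Cd6 were called lower (-2.63, -1.52, -2.53 and -1.39), where 12935 of 16790 genes were called and the median of all genes was -2.91. In TCF-1 cKO, Tnfrsf9 (2.36) and Cd226 (1.31) were called higher, 7 members lower, and Icos, at -0.13, neither, where 17526 of 18535 genes were called and the median of all genes was -4.92. The lower calls and changed signs of members under this scaling thus went with a shift of the median gene in the same direction. Tnfrsf9 was called higher under each of these 3 scalings in both genotypes, and Cd226 in TCF-1 cKO. The part of the cell makeup in the stage differences was not tested for any member.

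**Figure D3:**
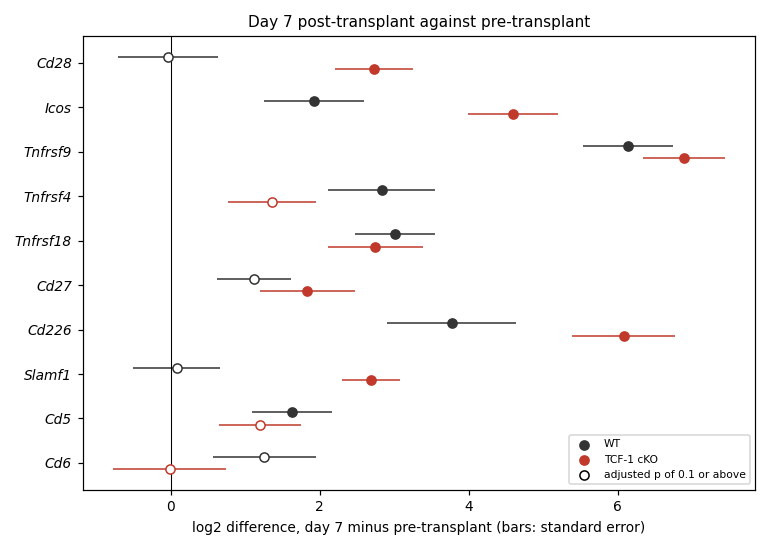
Log2 difference between day 7 post-transplant and pre-transplant for each member in WT and in TCF-1 cKO, with standard errors from edgeR and open points where the adjusted p was 0.1 or above. In the TMM scaling drawn here Tnfrsf9 differs most in both genotypes (6.14 and 6.88), while Cd28 and Slamf1 lie near 0 in WT and at 2.73 and 2.69 in TCF-1 cKO, and scaling to T cell markers puts both at -1.98 and -2.00 in TCF-1 cKO.

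Between genotypes before transplant, 8 of 10 members were lower in TCF-1 cKO libraries and none was called, at adjusted p of 0.199 to 0.871 by edgeR. Of 18757 tested genes, 0.016% were called higher and 0.0213% lower. At an unadjusted p under 0.05 there were 6 members (Cd28, Icos, Tnfrsf4, Cd27, Cd5 and Cd6), and 17.7% of all genes. DESeq2 called 3 members lower, Cd28, Cd5 and Cd6, with 1451 of 18757 genes called in all. The WT and TCF-1 cKO libraries did not overlap for Tnfrsf4, Cd27, Cd5 and Cd6, all lower in TCF-1 cKO, against 14.2% of all genes (16.1% were without overlap and higher, and no member was). The members' median log2 difference was -1.48, beside 0.05 for all genes and -1.41 for the 6 T cell markers, which ranged from -1.84 to -0.50, none called. Scaled to T cell markers, the members' differences lay between -0.97 for Cd5 and 1.59 for Cd226, and none was called. Under this scaling 5447 of 18757 genes were called and the median of all genes was 1.33. Without the library labelled TCF-1 cKO pre-transplant replicate 3, where Tnfrsf4, Tnfrsf18, Cd27, Cd5 and Cd6 were each at over 3 times their level in the other libraries of the group, these 5 members were called lower, with 2739 of 21575 genes called in all.

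Between genotypes at day 7, Tnfrsf4 was 12.5-fold, Cd6 15.1-fold, Cd5 9.24-fold and Tnfrsf18 3.56-fold lower in TCF-1 cKO than in WT cells. These 4 of 10 members passed an adjusted p of 0.1 and none was called higher, where 15.4% of 16026 tested genes were called lower and 2.51% higher. With Cd27, also lower, 5 members did not overlap between genotypes and were lower, against 17.3% of all genes. Cd226 and Slamf1, 2 of 10 members, did not overlap and were higher in TCF-1 cKO, against 23.4% of all genes, at log2 differences of 1.82 ± 0.74 and 1.33 ± 0.48 and adjusted p of 0.149 and 0.116. Cd28, Icos and Tnfrsf9 overlapped between genotypes. Of the 6 T cell markers, 2 were themselves called lower at day 7, Lat (-3.10) and Cd3e (-2.81), with a median of -0.44 over the list, and Cd3g lay above 0 and was not called. The 3 CD4 T cell markers summed to 13.7 to 53.3 CPM in WT and 3.22 to 12.5 in TCF-1 cKO, without overlap, and 1 of them was called lower. Their log2 differences ranged from -3.34 to -0.12, the latter that of Cd4 itself (edgeR adjusted p = 0.923). The 4 regulatory T cell markers summed to 93.1 to 146 in WT and 148 to 242 in TCF-1 cKO, with 1 called lower and none higher. Log2 differences within that list ranged from -3.99 to 1.53. The part of these cells in the result was not tested. Scaled to T cell markers the same 4 members were called lower, and with library totals Tnfrsf4, Cd5 and Cd6. In all, 2798 and 2221 of 16026 genes were called under these scalings. The call depended on the libraries: without any 1 of the 3 TCF-1 cKO libraries or of WT replicates 1 and 2 no member was called, and without the library labelled WT post-transplant replicate 3, the 1 with little Tcf7, 7 were, Tnfrsf4, Tnfrsf18, Cd27, Cd5 and Cd6 lower and Cd226 and Slamf1 higher. Calls over all genes went the same way, with 0 to 2 genes called in each of the 5 former fits and 5299 of 18183 in the last. Over these 6 fits the log2 difference stayed between -4.16 and -2.83 for Tnfrsf4, -2.31 and -1.47 for Tnfrsf18, -3.63 and -2.78 for Cd5 and -4.46 and -3.12 for Cd6.

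**Figure D4:**
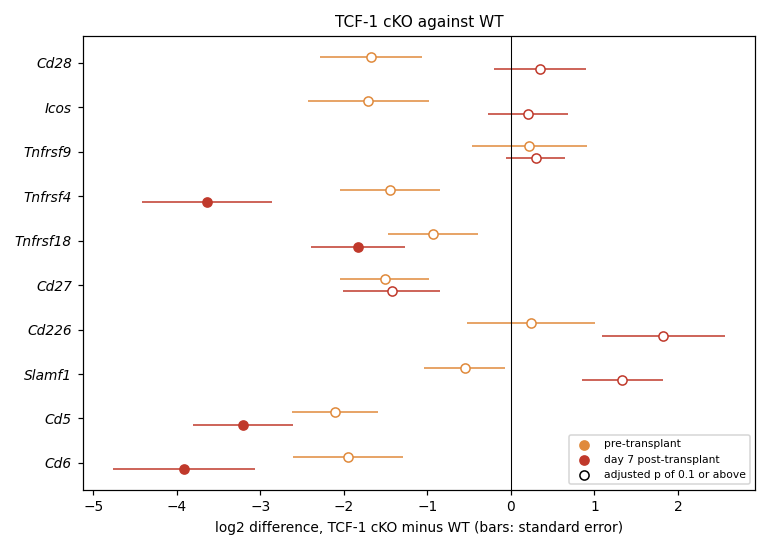
Log2 difference between TCF-1 cKO and WT for each member, pre-transplant and at day 7, with standard errors from edgeR and filled points where the adjusted p was below 0.1. The filled points are Tnfrsf4 (-3.64), Tnfrsf18 (-1.83), Cd5 (-3.21) and Cd6 (-3.91) at day 7, and Cd226 (1.82) and Slamf1 (1.33) are open points above 0 at day 7.

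An interaction term fitted on the 12 libraries asked whether the genotype difference was another at day 7 than before transplant, and 0.00465% of 21526 genes were called. No member passed, at edgeR adjusted p of 0.233 to 0.817. At an unadjusted p under 0.05 there were 3, Slamf1 (2.35 ± 0.70), Cd28 (2.53 ± 0.90) and Icos (2.46 ± 0.88), and 15.7% of all genes. These values are the log2 difference between TCF-1 cKO and WT post-transplant minus that pre-transplant. DESeq2 called the same 3 members, with 1713 genes in all. Scaled to T cell markers these shifts were 0.53, 0.65 and 0.53, and Tnfrsf4, Tnfrsf18, Cd5 and Cd6 were called instead, at -3.30, -1.96, -2.19 and -2.97, where 4860 genes were called and the median of all genes was -1.74. Without the library labelled WT post-transplant replicate 3, Cd28, Cd226 and Slamf1 were called, with 2093 of 23972 genes.

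The 5 members that were lower in TCF-1 cKO cells at day 7 are those with GC-rich transcripts. Tnfrsf4, Tnfrsf18, Cd27, Cd5 and Cd6 have a mean GC content of 54.2 to 57.2%, and their log2 differences lay between -3.91 and -1.43. Cd28, Icos, Tnfrsf9, Cd226 and Slamf1 have 41.2 to 49.7% and lay between 0.20 and 1.82. Over all genes tested at day 7 the log2 difference fell with GC content, with a median of 0.65 in the lowest of 10 equal bins of GC content and -2.59 in the highest and Spearman's rho of -0.57 across genes, which are not independent. Cd27 (-1.43) and Tnfrsf18 (-1.83) lay within the quartiles of their own bins, which were -2.18 to 0.16 and -2.95 to -0.49. Tnfrsf4 (-3.64), Cd5 (-3.21) and Cd6 (-3.91) lay below the lower quartiles of theirs, at -2.18, -2.95 and -3.35. Cd226 and Slamf1 lay above the upper quartile of their bin, at 1.26, and Icos (0.20), in the same bin, below its lower quartile, at 0.33. Cd28 and Tnfrsf9 lay within the quartiles of theirs. After an offset that removed each library's trend on GC content and length, the difference was -2.43 for Tnfrsf4, -1.56 for Cd5, -1.63 for Cd6, -0.51 for Tnfrsf18 and -0.54 for Cd27. With the offset Tnfrsf4 and Cd5 were called lower and no other member, where 567 of 16026 genes were called, against 2868 without it. Cd226 (1.07) and Slamf1 (0.68) stayed above 0, Tnfrsf9 was at 0.06, and Cd28 and Icos turned to -0.45 and -0.59. Pre-transplant the 5 GC-rich members lay between -2.11 and -0.93 before and between -2.16 and -1.17 after the offset, and the other 5 between -1.71 and 0.24 before and between -2.49 and -0.03 after it.

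The same split of members appeared between libraries of 1 group. In WT post-transplant libraries the 5 GC-rich members were each highest in replicate 2 and lowest in replicate 3, whereas Cd28, Icos, Cd226 and Slamf1 were lowest in replicate 2. Across 16385 genes the deviation of a library from the mean of all 12 correlated with GC content at rho = 0.38, 0.50 and -0.08 in WT post-transplant replicates 1, 2 and 3 and at -0.41, -0.28 and -0.43 in the TCF-1 cKO post-transplant libraries. Among TCF-1 cKO pre-transplant libraries, rho was -0.29, -0.35 and 0.26, and the GC-rich members were highest in replicate 3, the library with the positive value. The part of GC content in the genotype difference was not tested beyond the offset.

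**Figure D5:**
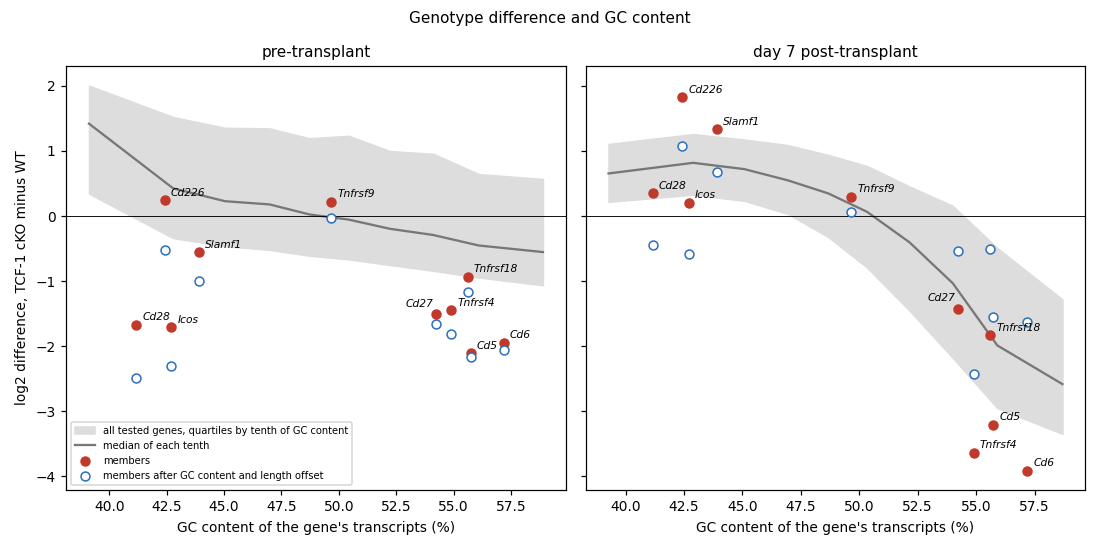
Log2 difference between TCF-1 cKO and WT against the GC content of each gene's transcripts (%), pre-transplant and at day 7. The grey band and line are the quartiles and median of all tested genes in 10 equal bins of GC content, filled points the members and open points the members after the GC content and length offset. At day 7 the members at 54.2 to 57.2% GC lie between -3.91 and -1.43 before the offset and between -2.43 and -0.51 after it.

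Cd28, the receptor for CD80 and CD86, was at 58.6, 17.9 and 85.5 in WT and 22.6, 9.37 and 10.9 in TCF-1 cKO pre-transplant libraries. The WT library 2 lay below the TCF-1 cKO library 1, so the genotypes overlapped, at a log2 difference of -1.67 ± 0.61. Post-transplant Cd28 was at 66.7, 27.9 and 93.5 in WT and 133, 49.4 and 104 in TCF-1 cKO, with overlap and a difference of 0.35 ± 0.55. In WT the stages overlapped, and in TCF-1 cKO every post-transplant library lay above every pre-transplant library in normalized CPM. In TPM the TCF-1 cKO stages overlapped, at 3.80 to 11.1 before and 5.97 to 14.7 after transplant. In WT the stage difference was -0.04 ± 0.67 and in TCF-1 cKO 2.73 ± 0.53 (adjusted p = 0.00443). With library totals the TCF-1 cKO difference was 1.08 and called higher, and with log2(TPM + 1) it was 0.39 and not called. Scaled to T cell markers, Cd28 was called lower post-transplant in both genotypes, at -2.63 in WT and -1.98 in TCF-1 cKO. Icos, the inducible member of the family, was at 34.8, 6.95 and 26.6 in WT and 10.5, 3.67 and 3.33 in TCF-1 cKO pre-transplant libraries. It rose to 124, 63.9 and 116 in WT and to 176, 84.6 and 166 in TCF-1 cKO post-transplant libraries, by 1.92 ± 0.67 (adjusted p = 0.0852) and 4.60 ± 0.60 (adjusted p = 0.000586) on the log2 scale. Each post-transplant library was above each pre-transplant library, and at day 7 the genotypes overlapped. Scaled to T cell markers, the Icos stage differences were -0.66 in WT and -0.13 in TCF-1 cKO, neither called.

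Tnfrsf9, which encodes 4-1BB, was at 11.0, 7.97 and 4.51 in WT and 9.32, 3.57 and 11.1 in TCF-1 cKO pre-transplant libraries and at 466, 639 and 895 and at 982, 857 and 1017 post-transplant. The stages were far apart in both genotypes, and at day 7 the highest WT library lay above the lowest TCF-1 cKO library. The stage differences were 6.14 ± 0.61 (adjusted p = 0.000565) and 6.88 ± 0.55 (adjusted p = 0.000109). Tnfrsf4, which encodes OX40, was at 26.0, 15.6 and 28.6 in WT and 3.96, 4.73 and 14.4 in TCF-1 cKO pre-transplant libraries. Post-transplant it was at 157, 380 and 55.3 in WT and 22.8, 12.2 and 24.3 in TCF-1 cKO, so all 3 WT libraries lay above all pre-transplant libraries, while in TCF-1 cKO 2 of 3 post-transplant libraries lay above the pre-transplant libraries of their genotype and the stages overlapped. The TCF-1 cKO stage difference of Tnfrsf4 did not pass with edgeR and did with voom, quality weights, DESeq2 and the GC content and length offset. With library totals Tnfrsf4 was at -0.12 and with log2(TPM + 1) at -0.40, neither called. Scaled to T cell markers, Tnfrsf4 was called lower post-transplant, at -3.11. Its genotype difference at day 7 was -3.64 ± 0.78 (adjusted p = 0.0448). Tnfrsf18, which encodes GITR, was at 79.9, 62.1 and 71.3 in WT and 18.2, 14.1 and 69.4 in TCF-1 cKO pre-transplant libraries, with TCF-1 cKO library 3 among the WT values. With TMM it was higher post-transplant in both genotypes, at 650.5, 1010.1 and 361 in WT and 191, 325 and 165 in TCF-1 cKO, where the genotypes did not overlap (-1.83 ± 0.57, adjusted p = 0.0769). With library totals the stage differences of Tnfrsf18 were 1.95 in WT and 1.33 in TCF-1 cKO, both called higher. Scaled to T cell markers they were 0.38 in WT, not called, and -1.58 in TCF-1 cKO, called lower.

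Cd27, the receptor for CD70, was at 85.2, 139 and 84.7 in WT and 14.2, 20.5 and 63.6 in TCF-1 cKO pre-transplant libraries, and at 245, 360.4 and 190 and at 109, 185 and 56.1 post-transplant. TCF-1 cKO libraries lay below WT libraries at both stages, with log2 differences of -1.51 ± 0.53 and -1.43 ± 0.58, and neither passed (adjusted p = 0.227 and 0.153). Non-coding transcripts of Cd27 with a retained intron held 21.5 to 45.4% of its TPM in the pre-transplant libraries and 0.930 to 13.3% post-transplant, without overlap between stages. Kallisto splits reads among overlapping transcripts by estimation, and these shares are uncertain to that extent.

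Cd226, which encodes DNAM-1, was at 6.59, 4.85 and 13.0 in WT and 14.5, 6.57 and 2.72 in TCF-1 cKO pre-transplant libraries. It was at 104, 24.3 and 279 in WT and 514, 387 and 723 in TCF-1 cKO post-transplant libraries. All TCF-1 cKO libraries lay above all WT libraries at day 7, and the WT values themselves spread over more than 10-fold. The stage differences were 3.77 ± 0.86 in WT (adjusted p = 0.0179) and 6.08 ± 0.69 in TCF-1 cKO (adjusted p = 0.000281). Slamf1, which encodes CD150, was at 40.1, 19.7 and 36.8 in WT and 22.9, 16.1 and 16.7 in TCF-1 cKO pre-transplant libraries, and at 35.1, 22.9 and 65.0 and at 139, 85.5 and 136 post-transplant. The 3 TCF-1 cKO post-transplant libraries were above the other 9 libraries. In WT the stages overlapped (0.08 ± 0.58), and in TCF-1 cKO the difference was 2.69 ± 0.39 (adjusted p = 0.000992). With library totals the TCF-1 cKO difference was 1.06 and called higher. Scaled to T cell markers, Slamf1 was called lower post-transplant in both genotypes, at -2.53 in WT and -2.00 in TCF-1 cKO. The single intron-retaining transcript of Slamf1 held 56.5 to 66.6% of its TPM in TCF-1 cKO and 21.5 to 34.2% in WT pre-transplant libraries, and 8.51 to 10.8% and 10.6 to 19.0% post-transplant, so the genotypes did not overlap before transplant.

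Cd5 was at 95.1, 92.0 and 102 in WT pre-transplant libraries, the narrowest spread relative to the mean of any member in that group, and at 9.67, 12.1 and 38.7 in TCF-1 cKO. Post-transplant it was at 332, 554 and 168 in WT and 47.3, 55.9 and 35.7 in TCF-1 cKO. The TCF-1 cKO libraries lay below every WT library at both stages, with log2 differences of -2.11 ± 0.52 (adjusted p = 0.199) and -3.21 ± 0.60 (adjusted p = 0.0448). Cd6 was at 151, 152 and 221 in WT and 11.3, 16.6 and 98.4 in TCF-1 cKO pre-transplant libraries, and at 426, 948 and 105 and at 66.0, 28.3 and 30.3 post-transplant. Its WT post-transplant library 3 lay below the WT pre-transplant libraries, and its 3 TCF-1 cKO post-transplant libraries below all WT libraries. The genotype difference at day 7 was -3.91 ± 0.85 (adjusted p = 0.0448).

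Among the partners of the receptors, 12 ligands, 6 inhibitory counterparts, 13 other costimulatory receptors, 17 signal transducers and 10 genes induced by costimulation were followed. Cd2 is also in the T cell marker list. Before transplant edgeR called 0 of the 55 tested genes between genotypes, with 17 at an unadjusted p under 0.05 (17.7% of all genes were). In the interaction it called 0 of 56, with 16 under that p (15.7% of all genes were). At day 7, where 15.4% of all genes were called lower and 2.51% higher, 1 of 11 tested ligands was called higher in TCF-1 cKO and none lower (median log2 difference -0.40, all genes 0.15), namely Tnfsf4, the ligand of OX40, at a mean of 16.3 CPM against 0.974 in WT (3.64 ± 1.18). Of the inhibitory counterparts, Cd160 was called higher (1.32 ± 0.44) and Tigit, which competes with CD226 for its ligands, lower (-2.34 ± 0.62), with a median of 0.63 over 6 genes. Of 13 other costimulatory receptors 2 were called lower and none higher (median 0.29), Tnfrsf1b, a TNF receptor (-3.43 ± 0.69), and Tnfrsf25, or DR3 (-3.43 ± 0.90). Of 17 signal transducers 6 were called lower and none higher (median -1.07), and the 3 with the smallest p were Vav1 (-2.77 ± 0.66), an exchange factor downstream of CD28, the kinase Lck (-2.48 ± 0.67) and the phosphatase Ubash3a (-2.02 ± 0.56). Of 9 tested genes induced by costimulation, Ifng was called higher (1.70 ± 0.52) and 3 lower (median -1.11), Nfkb2 (-3.85 ± 0.94), Bcl2l1 (-3.02 ± 0.71) and Myc (-3.01 ± 0.70). The genes named here as lower had GC contents of 52.3 to 59.3% and those named as higher 42.8 to 49.9%.

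Between stages, 11 genes of the lists were called higher and 6 lower in WT (9.7% and 10.3% of all genes) and 23 higher and 8 lower in TCF-1 cKO (19.7% and 16.8%), of 55 tested. The ligands Icosl and Cd72, which B cells carry, were called lower post-transplant in both genotypes, from 127 to 6.36 and from 251 to 15.2 mean CPM in WT, in the libraries where B cell markers were low as well. Tnfsf9, the ligand of 4-1BB, was called higher in both (4.15 ± 1.02 in WT and 4.80 ± 1.27 in TCF-1 cKO), as was Cd48, a SLAM family ligand of CD2 (2.47 ± 0.76 and 5.82 ± 0.44). Of 6 inhibitory counterparts 4 were called higher in WT and 5 in TCF-1 cKO and none lower (medians 3.20 and 4.23), with Pdcd1, which encodes PD-1, at 6.69 ± 0.59 and 7.41 ± 0.84. The other costimulatory receptors gave 2 higher and 1 lower in WT and 7 higher and 1 lower in TCF-1 cKO (medians 1.17 and 1.49), and the transducers 2 higher and 1 lower and 7 higher and 2 lower (medians 0.03 and 0.39). Sh2d1a, which encodes the SLAM adaptor SAP, was called higher in both (3.65 ± 0.80 and 5.07 ± 0.39). Of the genes induced by costimulation 1 was called higher and 2 lower in WT and 2 higher and 3 lower in TCF-1 cKO (medians -1.06 and -0.80), with Ifng higher in both. Medians over all genes were -0.30 and -0.29.

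For Cd28 and Icos, the genes with the most similar profiles over the 12 libraries were named by the root mean square difference of mean-centred log2(CPM + 1) values among 14584 genes. For Cd28 they were Tatdn3, Stat4, Mthfs, Pdia3 and Ddb2, at 0.43 to 0.45, and among the members Slamf1 was nearest at 0.61. For Icos they were Immp1l, Pigf, Atp5c1, Emc7 and Il18rap, at 0.45 to 0.58, and among the members Cd28 was nearest at 1.00. Cd6 was the farthest member from Icos, at 2.29. All 10 named genes had a GC content of 39.2 to 48.9%.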

How the data were processed

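The authors sorted cells into Trizol, made SMART-Seq HT cDNA and Nextera XT libraries, sequenced them paired-end and pseudoaligned the reads with kallisto (0.46.2 in the submitters' processing notes, which also list limma and mm9). The deposited values are an estimated count per transcript, not scaled for depth or length, and TPM, scaled for both by the authors. The transcript release is not given in the sources used here. Here 116374 of 117497 transcripts were joined without version numbers to GENCODE M21 (GRCm38), giving 35855 genes and 99.5 to 99.7% of each library's counts. Estimated counts were summed per gene and rounded, and TPM values were summed.

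Each comparison was fitted on its own 6 libraries, and the interaction on all 12, with edgeR 4.0.16 in R 4.3.3 (TMM, filterByExpr, quasi-likelihood test) across all genes, with Benjamini-Hochberg adjustment and calls below an FDR of 0.1. Standard errors came from the log2 difference and the F statistic, and the fits were tested on simulated data. A level of 3 counts equals 0.0919 to 0.664 CPM, for counting error only.

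The members and lists were chosen with earlier results of these data known. Beyond the 10 members, Tcf7 and sort markers, the text names, for each list and comparison, up to 3 called genes a direction, taken by smallest p, and the 5 genes most like Cd28 and Icos. Lat, Cd3d, Cd3g, Cd247 and Cd2 are named as the T cell list. GC content limits of 54% and 50% were set after values were seen. Alternatives were limma 3.58.1 (voom, quality weights, log2(TPM + 1)), DESeq2 1.42.0, other scalings and filters, FDR 0.05, a replicate block, a GC content and length offset (loess, span 0.4), a joint fit of the 12 libraries, and fits that each left 1 library out. Scaling to T cell markers was added after the data were seen. Computations also used Python 3.11.15 and pandas 2.3.3.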

Additional observations from a re-analysis of the deposited data

How the results depend on the processing

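Of 1054 member values under an alternative, 16 changed sign when libraries were scaled to T cell markers, a setting chosen after seeing the data, and 70 under the others. The cause of these and of the changed counts below was not tested. Replicate numbers did not pair the libraries (same-number correlations of deviations -0.106 to 0.115), and with a replicate block 6 members were called between genotypes post-transplant, 0 pre-transplant, 5 and 7 between stages in WT and TCF-1 cKO, and 0 in the interaction. Between genotypes pre-transplant 7 members were called with voom and quality weights, 3 with DESeq2, 1 with log2(TPM + 1), 4 without a filter (edgeR: 0, 6 at unadjusted p under 0.05), and 0 to 5 without single libraries. Post-transplant, quality weights and DESeq2 called 7, the GC content and length offset 2, the offset with replicate block 0, and fits without single libraries 0 to 7. WT stages gave 2 with log2(TPM + 1) and 3 to 8 without single libraries, where voom called 5 and DESeq2 7. The interaction gave 4 with quality weights, 3 with DESeq2, 4 scaled to T cell markers and 0 to 3 without single libraries. TCF-1 cKO stages gave 5 (log2(TPM + 1)) to 10 (quality weights, or without TCF-1 cKO pre-transplant replicate 3). Genes called in all ranged from 0 to 7566 pre-transplant (7 by edgeR) and 0 to 7591 post-transplant (2868), lowest without single libraries and highest with quality weights. The TCF-1 cKO pre-transplant libraries held the fewest counts (4520270 to 9577076), which limits the values of low members such as Tnfrsf9 there.

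The following log2 differences changed sign. Scaled to T cell markers: pre-transplant Tnfrsf18 0.17 and Slamf1 0.75, WT stages Icos -0.66, Cd27 -1.52, Slamf1 -2.53, Cd5 -1.01 and Cd6 -1.39, TCF-1 cKO stages Cd28 -1.98, Icos -0.13, Tnfrsf4 -3.11, Tnfrsf18 -1.58, Cd27 -2.53, Slamf1 -2.00 and Cd5 -3.20, and interaction Tnfrsf9 -1.15 and Cd27 -1.01. With log2(TPM + 1): pre-transplant Cd226 -0.18, WT stages Cd27 -0.44, Slamf1 -0.97 and Cd6 -0.48, TCF-1 cKO stages Tnfrsf4 -0.40, Cd27 -0.18 and Cd5 -0.42. With library totals: WT stages Slamf1 -0.77, TCF-1 cKO stages Tnfrsf4 -0.12 and Cd5 -0.26. With the GC content and length offset, and in brackets with replicate block too: pre-transplant Tnfrsf9 -0.035 (-0.073) and Cd226 -0.53 (-0.57), post-transplant Cd28 -0.45 (-0.46) and Icos -0.59 (-0.58), WT stages Cd28 0.79 (1.01), TCF-1 cKO stages Cd6 1.15 (1.35), interaction Tnfrsf18 0.44 (0.47) and Cd5 0.27 (0.29). With the replicate block alone: WT stages Cd28 0.066 and TCF-1 cKO stages Cd6 0.56. With voom: pre-transplant Cd226 -0.11, WT stages Cd28 0.065, TCF-1 cKO stages Cd6 0.46. With quality weights: post-transplant Icos -0.046, WT stages Cd28 0.097 and Slamf1 -0.063, TCF-1 cKO stages Cd6 1.38, interaction Tnfrsf18 0.28, Cd5 0.099 and Cd6 0.18. Without a filter: pre-transplant Tnfrsf9 -0.058 and Cd226 -0.17, WT stages Cd28 0.023. With counts scaled from TPM: Cd226 -0.49, and with 1 fit over all 12 libraries: Cd226 -0.039, both pre-transplant, and WT stages Cd28 0.22. With DESeq2, as test or size factors: WT stages Cd28 0.10. Without single libraries: pre-transplant Cd226 -0.58 to 0.64 and Tnfrsf9 -0.14 to 0.51, post-transplant Cd28 -0.026 to 0.60 and Icos -0.070 to 0.40, WT stages Cd28 -0.46 to 0.56 and Slamf1 -0.18 to 0.62, TCF-1 cKO stages Cd6 -0.50 to 1.66, interaction Cd27 -0.13 to 1.30, Tnfrsf9 -0.059 to 0.76, Tnfrsf18 -1.10 to 0.48 and Cd5 -1.25 to 0.12.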
